A study of Mus musculus with 2 samples.

Results

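Bone marrow macrophages that carry complement C1q transcripts were taken as the barcodes of single cells with at least 5 UMIs of C1qa, C1qb and C1qc together, from at least 2 of these genes. A UMI, or unique molecular identifier, marks 1 captured RNA molecule, and a barcode marks 1 droplet. Barcodes were considered from 500 UMIs upwards with at most 20% mitochondrial UMIs, and those with 40% or more hemoglobin UMIs (Hbb-bt, Hbb-bs, Hba-a1, Hba-a2), with 3 or more UMIs of the B cell receptor genes Cd79a and Cd79b, or with 5% or more UMIs of the neutrophil granule genes S100a8, S100a9, Camp, Ngp and Ltf were left out. The rule selected 593 of 33691 barcodes, 411 of 19764 in the control library and 182 of 13927 in the DKO library. The control mouse was labelled WT and, by the methods of the study, was a Ddx41 fl/fl littermate that lacked VavCre and had intact cGas. The DKO mouse was VavCre:Ddx41 fl/fl, cGAS-/-, so that Ddx41 was floxed in both and cGas was missing in the DKO only. Both were 2 months old. Vav-driven Cre acts in hematopoietic cells, whereas the cGas deletion was in all cells of the animal, and marrow was flushed from the bone, made into 10x Chromium Single Cell 3' v3 libraries and sequenced as 1 library of 1 mouse per genotype.

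Since each genotype is represented by a single library, how much mice vary is unknown here and no genotype difference could be tested. Levels are given as CPM (counts scaled to 1000000 UMIs) of the barcodes named, with exact Poisson 95% intervals, shares with exact Clopper-Pearson 95% intervals, and changes as log2 ratios, DKO divided by control, after 1 count was added to each sum, with an exact conditional binomial 95% interval. All intervals cover counting error only. A gene is called higher or lower where this ratio reaches 2-fold, so that the words describe these 2 libraries and not the genotypes. The deposited matrices differed in how barcodes had been selected. The control matrix listed 1518290 barcodes down to 1 UMI or none, whereas the DKO matrix listed 14142 barcodes, none of them under 500 UMIs, so that shares of barcodes are not on equal footing between libraries.

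C1q is the recognition subunit of the classical complement pathway, built from the A, B and C chains, and in tissues it is made mainly by macrophages. Macrophages of the marrow sit at the center of erythroblastic islands, where they hold erythroblasts through adhesion molecules such as Vcam1, engulf the nuclei that these cells expel, and recycle iron from senescent red cells. Spic is a transcription factor of iron-recycling macrophages, Hmox1 splits heme, and Slc40a1, or ferroportin, exports the iron. The 3 C1q genes lie side by side on the minus strand of chromosome 4 in mm10, C1qb at chr4:136880129-136886187, C1qc at chr4:136889804-136893065 and C1qa at chr4:136895917-136898803 by GENCODE M21 on the same build. Vcam1 lies at chr3:116109949-116129688 on the minus strand, and Adgre1, which encodes the macrophage antigen F4/80, at chr17:57358691-57483527 on the plus strand.

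Because C1q transcripts chose the barcodes and interferon-stimulated genes were the list with the lowest median ratio over all C1q barcodes, sequence just before the start of 2 genes of each kind is shown, from RefSeq on GRCm38.p6 and in the direction of the gene. Capitals mark matches on either strand to GAGGAA, a core of sites of the ETS factor PU.1, to TGCTGA, part of the site of Maf factors, or to GAAA followed after any 2 bases by another GAAA, the core of the interferon-stimulated response element.
C1qb, 200 to 1 bases before the start, chr4:136886201-136886400, minus strand: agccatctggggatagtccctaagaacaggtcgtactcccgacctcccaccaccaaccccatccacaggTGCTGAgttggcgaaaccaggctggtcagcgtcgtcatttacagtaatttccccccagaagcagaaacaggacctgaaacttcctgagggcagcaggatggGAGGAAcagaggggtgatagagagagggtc
C1qc, 200 to 152 bases before the start, chr4:136893066-136893114, minus strand: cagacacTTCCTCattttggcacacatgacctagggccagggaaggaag
Isg15, 200 to 1 bases before the start, chr4:156200819-156201018, minus strand: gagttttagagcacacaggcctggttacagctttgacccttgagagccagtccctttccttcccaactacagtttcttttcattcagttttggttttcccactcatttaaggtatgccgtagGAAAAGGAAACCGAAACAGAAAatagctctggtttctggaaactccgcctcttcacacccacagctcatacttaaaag
Bst2, 200 to 1 bases before the start, chr8:71537473-71537672, minus strand: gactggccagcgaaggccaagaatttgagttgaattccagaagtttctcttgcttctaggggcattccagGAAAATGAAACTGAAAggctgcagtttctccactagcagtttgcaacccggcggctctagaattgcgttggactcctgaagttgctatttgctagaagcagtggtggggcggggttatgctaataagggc
The C1qb window held TGCTGA starting 131 bases and GAGGAA starting 30 bases before the start, and the shorter C1qc window held GAGGAA read on the other strand at 193. Isg15 carried 3 overlapping copies of the interferon element from 78, 72 and 66 bases before its start, and Bst2 carried 2 overlapping copies from 130 and 124. Of 27025 genes with a promoter window, 25.9% held GAGGAA, 18.02% TGCTGA and 3.46% the interferon element in the 250 bases before a listed start. A match of letters is a description of these windows and does not show that a factor binds there.

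The check of the label against marker genes gave the following. Vcam1 stood at 1493 CPM in control and 1335 CPM in DKO C1q barcodes, against 26.6 and 16.7 CPM in all other barcodes, and Adgre1 at 215 and 269 CPM against 13.9 and 15.1 CPM. A Vcam1 UMI was found in 70.6% of control and 69.8% of DKO C1q barcodes, and an Adgre1 UMI in 34.1% and 47.3%. Because these barcodes were shallow (median 1118 and 1048 UMIs, against 4764.5 and 6954 in all passing barcodes), each barcode was also thinned to 500 UMIs, the lowest depth present, so that none was left out. Vcam1 was then found in 55.2% of control and 54.4% of DKO C1q barcodes and in 0 of 942 control and 0 of 563 DKO Ly6C-high monocytes thinned likewise, so that at that depth up to 0.318% and 0.533% of them could carry a Vcam1 UMI. Unthinned, 4.46% and 2.49% of these monocytes had a Vcam1 UMI. These monocytes, set beside the C1q barcodes throughout, were barcodes with fewer than 5 C1q UMIs, at least 5 UMIs of Ly6c2, Ccr2, F13a1 and Vcan and at least 1 of Csf1r, and were deep (median 10792.5 and 12604 UMIs). Markers of Ly6C-high monocytes, which include the selecting genes, summed to 6534 CPM (control) and 6372 CPM (DKO) in them. Markers of granulocyte-monocyte progenitors (Elane, Mpo, Prtn3, Ctsg and Ms4a3) summed to 6307 and 5005 CPM, and cell cycle genes to 10407 and 8976 CPM. The class thus carried progenitor RNA as well, and its ratios are not those of mature monocytes alone. Adgre1, in contrast, was found in 10.9% and 18.1% of C1q barcodes and in 4.6% and 5.7% of Ly6C-high monocytes after thinning, and unthinned in 45.1% and 61.8% of the latter. Of other macrophage genes, Siglec1 (CD169) reached 34.9 and 26.9 CPM, Timd4 19.2 and 10.7 CPM, and the Kupffer cell gene Clec4f and the vessel-associated macrophage gene Lyve1 were at 0 in both libraries, which with a floor of 3 counts allows up to 2.05 CPM (control) and 4.03 CPM (DKO).

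**Figure D1:**
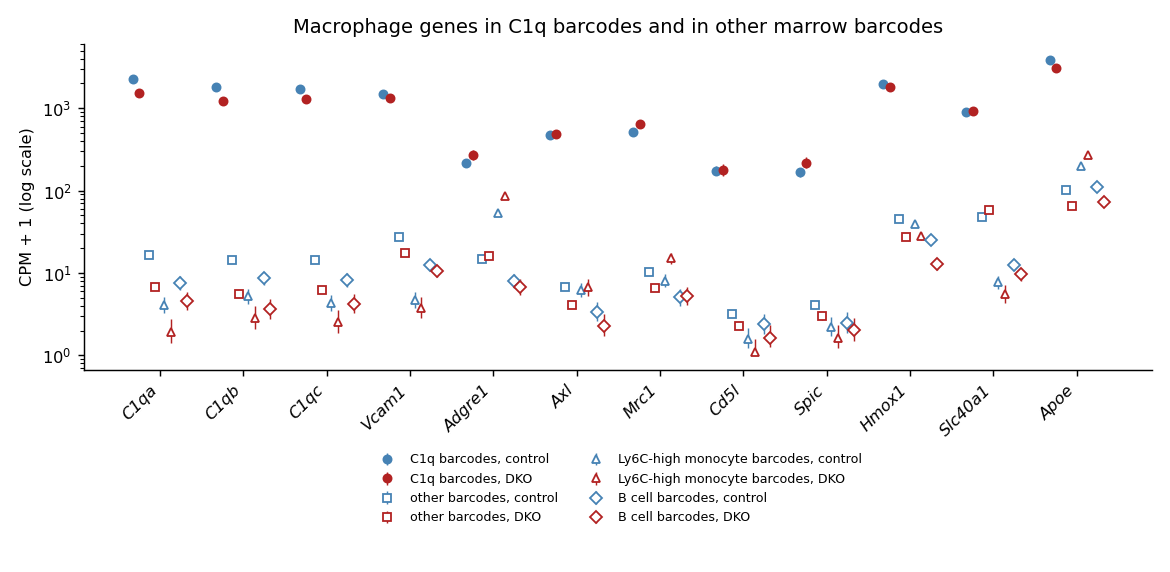
Levels of the 5 marker genes and 7 further macrophage genes (CPM plus 1, log axis) in C1q barcodes (filled circles), all other barcodes (squares), Ly6C-high monocytes (triangles) and B cells (diamonds) of the control (blue) and DKO (red) library, with exact Poisson 95% intervals. C1qa, C1qb and C1qc chose the barcodes, and Vcam1, at 1493 and 1335 CPM, stood far above the other classes without having been used, whereas Adgre1 was less far above the monocytes.

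The 20 genes with the largest fold over the other barcodes in both libraries were mostly genes of resident and phagocytic macrophages. They were chosen on this contrast, and the values describe it. Next to the C1q genes they included Fcna, the lectin ficolin A (94.0-fold and 124-fold), Ms4a7 (79.6 and 115), the phosphatidylserine-bridge receptors Axl (70.2 and 118) and Mertk (38.5 and 124), the mannose receptor Mrc1 (50.9 and 99.6), Vcam1 (54.2 and 75.7), Spic (41.0 and 73.5), Hmox1 (43.4 and 66.3) and the lipid carrier Apoe (38.3 and 46.8). Cd5l, Igf1, Sdc3, Ccr3, Maf, Hpgds and Itgad were also in the set. Of 1444 genes at 100 CPM or more in the C1q barcodes of both libraries, 140 (9.7%) were at least 4-fold above the other barcodes in both.

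C1q transcripts were not limited to the chosen barcodes. At least 1 C1q UMI was present in 10.9% of the other barcodes in the control library and in 6.74% in the DKO library, in 10.8% and 4.97% of Ly6C-high monocytes, and in 8.49% and 4.58% of B cells, cell types that should carry little of it. In control droplets of at most 100 UMIs, which hold mostly free RNA, C1qa stood at 120.8 CPM, Vcam1 at 150 CPM and Hmox1 at 299 CPM. The DKO matrix holds no such droplets, and the same measure could not be had for it. At the threshold itself, 42 control and 32 DKO barcodes had exactly 4 C1q UMIs and carried Vcam1 in 40.5% and 56.2%, and 47 and 20 barcodes had exactly 5 and carried Vcam1 in 59.6% and 60.0%.

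C1q barcodes were 2.08% (1.89% to 2.29%) of passing control barcodes and 1.31% (1.12% to 1.51%) of passing DKO barcodes, and 3.31% and 2.17% of those with little hemoglobin. How far these shares lay apart depended on depth. Among barcodes of 500 to 1000 UMIs, C1q barcodes made up 10.8% (187 of 1734) and 9.40% (81 of 862), and among those of 1000 to 1500 UMIs 7.48% (74 of 989) and 9.05% (40 of 442), the DKO share being the higher one there. From 5000 UMIs upwards they made up 0.941% (88 of 9351) and 0.437% (38 of 8692). Barcodes under 1500 UMIs formed 63.5% (control) and 66.5% (DKO) of the set. In the DKO library 862 barcodes lay between 500 and 1000 UMIs, and in the control library 1734, and the part that barcode selection had in the lower overall share was not tested.

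**Figure D2:**
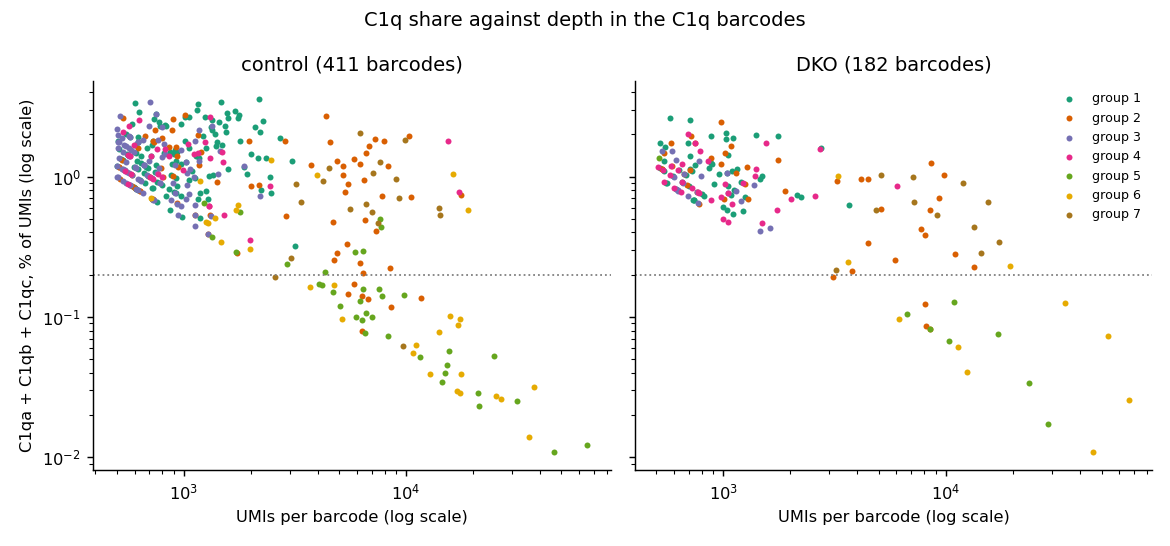
Share of UMIs from C1qa, C1qb and C1qc (percent, log axis) against total UMIs per barcode (log axis) for every C1q barcode of the control and DKO library, colored by the 7 groups described next, with a dotted line at 0.2%. Most barcodes lie under 1500 UMIs, and the barcodes under the line are deep ones, chiefly of groups 5 and 6.

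Depth also split the C1q barcodes by content. Under 1500 UMIs, C1q made up 1.36% (control) and 1.07% (DKO) of the UMIs, and Vcam1 stood at 3083 and 3295 CPM. The 88 control and 38 DKO barcodes of at least 5000 UMIs held 73.3% and 77.1% of all UMIs of the set, yet C1q made up 0.347% and 0.241% of their UMIs and the azurophil granule gene Elane, a marker of granulocyte-monocyte progenitors, reached 1924 and 581 CPM. Over all C1q barcodes, markers of granulocyte-monocyte progenitors summed to 4631 CPM (control) and 1583 CPM (DKO), megakaryocyte markers to 690 and 32.2, basophil markers to 689 and 25.5, stromal markers to 1187 and 902, and erythroid markers other than globins to 1901 and 2974. Neutrophil markers summed to 3586 and 2951 CPM and globins to 45878 and 43392 CPM. Markers of B cells (161 and 171 CPM) and of Ly6C-high monocytes (1017 and 1167 CPM) were close in both. A doublet score marked none of the 593 barcodes, although several of these marker classes are not expected in macrophages, and no C1q barcode occurred in both libraries. Because of these markers, the main comparisons below are also given for the C1q-rich barcodes, 359 control and 164 DKO, in which C1q is at least 0.2% of UMIs. They hold 49.9% and 51.1% of the UMIs of the set, and the cut was chosen after values had been seen. Marker sums of other cells differed between the libraries there too. Progenitor markers summed to 1385 CPM (control) and 55.1 CPM (DKO), neutrophil markers to 3712 and 874, megakaryocyte markers to 285 and 31.5, stromal markers to 269 and 160.2, globins to 27985 and 41605, other erythroid markers to 856 and 909, and basophil markers to 13.7 and 2.63. The part of this RNA in the ratios of either set was not tested.

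Clustering of the C1q barcodes of both libraries together gave 7 groups, which are called here by their leading genes. Since all genes of these cells made the groups, their levels are descriptions. The group led by Fcna, Cd5l, Cd163, Mgst1 and Hmox1 (group 1) was the largest, with 123 control and 55 DKO barcodes at a median of 914.5 UMIs, and 95.5% of its barcodes had a Vcam1 UMI. Its level of Hmox1 was 7037 CPM (control) and 7707 CPM (DKO), and of Slc40a1 2794 and 3498 CPM. Cd163, the scavenger receptor for hemoglobin bound to haptoglobin, stood at 480 CPM (66 UMIs) and 320 CPM (18 UMIs).

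Vcam1 and Spic were also high in a set of deeper barcodes. The group led by Mertk, Frmd4b, Dgki, Dip2c and Fmnl2 (group 7) counted 19 control and 11 DKO barcodes at a median of 7157.5 UMIs, with Vcam1 in 96.7% and Adgre1 in 100% of them. Vcam1 stood at 5189 and 4344 CPM, Spic at 535 and 522 CPM, and Pparg, a nuclear receptor of lipid-handling macrophages, at 1561 and 1393 CPM, whereas Hmox1 was at 6044 CPM (control) and 2465 CPM (DKO) and Fth1, ferritin heavy chain, at 7166 and 3556 CPM. Its ribosomal protein transcripts summed to 53716 CPM (control) and 29382 CPM (DKO).

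The group led by H2-Eb1, H2-Aa, H2-Ab1, Cd74 and Ccr2 (group 2), with 79 control and 43 DKO barcodes, presented another picture. Cd74, the invariant chain of MHC class II, stood at 15425 and 14854 CPM, Vcam1 was found in only 28.7% of its barcodes and Adgre1 in 54.9%, and Hmox1 was at 420 and 729 CPM. Of its 10 leading genes, 2 were markers of Ly6C-high monocytes and 1 of dendritic cells. By contrast, the group led by Gpnmb, Atp6v0d2, Fabp5, H2-M2 and S100a1 (group 4), with 33 control and 34 DKO barcodes, carried Fth1 at 55775 and 47216 CPM and the lipid receptor Trem2 at 880 and 567 CPM. Gpnmb is a lysosomal glycoprotein of lipid-laden and bone-resorbing macrophages, and in the DKO library 61.4% of its UMIs over all C1q barcodes came from 1 barcode. The group led by Crip2, Il18, Prxl2b, Cela1 and Cib2 (group 3) was the shallowest, with 91 control and 21 DKO barcodes at a median of 686.5 UMIs and Hmox1 at 5570 and 6750 CPM.

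None of the 5 macrophage markers was among the 10 leading genes of any group, which were picked against the other C1q barcodes. By markers of other cells among the leading genes, both remaining groups (5 and 6) went against the macrophage label. Their summed macrophage markers were at 1023 and 1868 CPM. The H2-Eb1 group had such leading genes too, but its macrophage markers, which include the C1q genes of the rule, summed to 8581 CPM. Its Ly6C-high monocyte markers summed to 2168 CPM and its dendritic cell markers to 855 CPM. The Fcna group had 1 leading gene that marks Ly6C-low monocytes. The group led by Elane, Ctsg, Prtn3, Mpo and Prss34 (group 5, 36 control and 8 DKO barcodes, median 7610.5 UMIs) had 5 markers of granulocyte-monocyte progenitors and 2 of basophils among its 10 leading genes, and C1q reached only 793 CPM, but it supplied 28.7% (control) and 14.3% (DKO) of the UMIs of the set. These progenitor markers each had a UMI in only 11 to 19 of its 44 barcodes, Prss34 in 1 and Mcpt8 in 3. A Vcam1 UMI was found in 54.5% of the 44, and 11 were C1q-rich, so the label does not fail for each barcode alike. The group led by Cxcl12, Slc25a21, Csmd1, Igfbp5 and Ibsp (group 6, 30 and 10 barcodes, median 11876 UMIs) had C1q at 1287 CPM, 11.1% hemoglobin UMIs, 2 stromal markers among its leading genes and Mki67, a gene of dividing cells, at 837 CPM, and supplied 23.6% and 34.4% of the UMIs. Its erythroid markers other than globins summed to 7245 CPM and its stromal markers to 3671 CPM. A Cxcl12 UMI was found in 10 of its 40 barcodes and a Slc25a21 UMI in 24, so the group was mixed. No group was given a cell type name. Group borders were loose, because 5 other random starts gave 8 to 9 groups with an adjusted Rand index of 0.607 to 0.690 to the one shown. Since genes that differed between the libraries also made the groups, group sizes are not compared between genotypes.

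**Figure D3:**
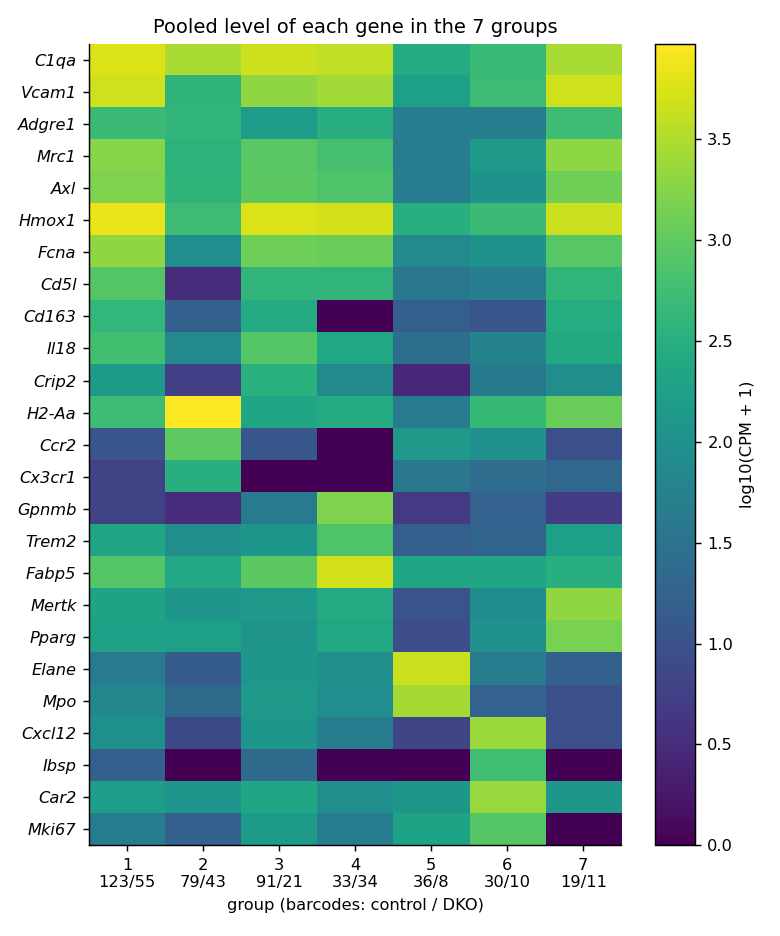
Level of selected genes (rows) in groups 1 to 7 of the C1q barcodes (columns, with the number of control and DKO barcodes), both libraries pooled, as log10 of CPM plus 1 (color). Vcam1 and Hmox1 are high in groups 1, 3, 4 and 7, H2-Aa in group 2, Elane and Mpo in group 5, and Cxcl12 and Car2 in group 6.

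Ddx41, the floxed gene (chr13:55530410-55536658, minus strand), had 48 UMIs in control C1q barcodes (32.8 CPM) and 8 in DKO ones (10.7 CPM), a log2 ratio of -1.47 (-2.90 to -0.52). In the C1q-rich barcodes there were 30 and 3 UMIs, and in Ly6C-high monocytes the ratio was -1.21. Cgas (chr9:78430526-78443237, minus strand) had 27 and 9 UMIs, a ratio of -0.51 whose interval of -1.89 to 0.52 reached past 0, and of 0.03 in the C1q-rich barcodes. Reads of 3' libraries can lie outside the deleted exons, so that these levels check the labels only in part.

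Over all genes, 4072 reached 50 CPM in the C1q barcodes of at least 1 library, of which 126 (3.09%) were at least 2-fold higher and 90 (2.21%) at least 2-fold lower in the DKO. The median log2 ratio of all these genes was 0.13. In the C1q-rich barcodes 3796 genes were compared, with 240 (6.32%) higher, 130 (3.42%) lower and a median of 0.11. The counts for lists below are to be read beside these shares, at which short lists hold few or no genes past 2-fold. Of the 126 higher genes 73 were past 2-fold the same way in the C1q-rich barcodes, and of the 90 lower genes 65. In all other barcodes, 2 of the 126 and 29 of the 90 were past 2-fold the same way. For 13 and 21 of these genes, respectively, over 50% of the UMIs of the higher library came from 1 barcode.

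**Figure D4:**
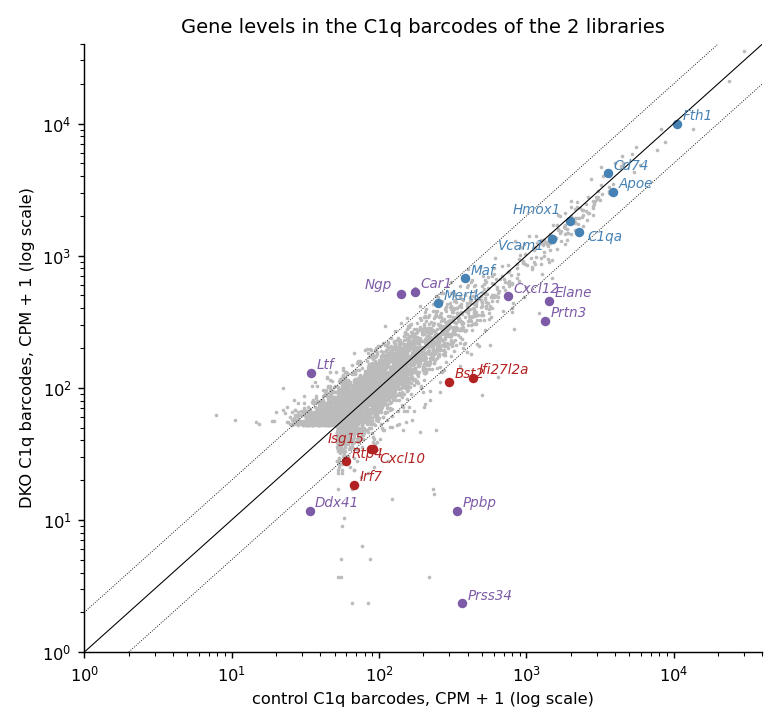
Level of each gene in the DKO against the control C1q barcodes (CPM plus 1, log axes), with interferon-stimulated genes in red, macrophage genes in blue and other named genes in purple, a solid line at equal levels and dotted lines at 2-fold. Of 4072 genes tested (gray), 126 are at least 2-fold higher and 90 at least 2-fold lower in the DKO, and the labelled interferon-stimulated genes lie below the lower line.

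Interferon-stimulated genes, which cells switch on behind the type I interferon receptor and, among other routes, after cGAS has sensed DNA, had the lowest median of the lists over all C1q barcodes, against 0.13 over all genes. Of 16 genes of this list that were tested, none was at least 2-fold higher and 6 were at least 2-fold lower, against 3.09% and 2.21% of all genes. Their median log2 ratio was -0.66, and 10 intervals lay wholly below 0, which was so for 15.3% of all genes. Ifi27l2a, a small mitochondrial protein, had 638 UMIs in 132 control barcodes (437 CPM) and 88 UMIs in 23 DKO barcodes (118 CPM), a log2 ratio of -1.87 (-2.22 to -1.56). Bst2, or tetherin, which holds budding virus at the membrane, had 436 and 82 UMIs (298 and 110 CPM) and a ratio of -1.42 (-1.80 to -1.10). These were the best counted members of the list, and both were lower in the DKO in most groups. Bst2 was level in the Cxcl12 group (89.9 and 89.7 CPM), and Ifi27l2a had only 2 and 0 UMIs in the Gpnmb group. Irf7, the transcription factor that amplifies interferon production, had 98 and 13 UMIs and a ratio of -1.85 (-2.90 to -1.10). Isg15, a ubiquitin-like modifier, had 128 and 25 UMIs (87.6 and 33.6 CPM) and a ratio of -1.34 (-2.06 to -0.76). Rtp4 had 86 and 20 UMIs and a ratio of -1.08 (-1.91 to -0.42).

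For Cxcl10, an interferon-induced chemokine, 131 control and 25 DKO UMIs gave -1.37, but 74.8% of the control UMIs came from 1 barcode and the ratio was -0.31 without the top barcode of each library. The other members lay closer to 0. The immunoproteasome genes Psmb8 (-0.86) and Psmb9 (-0.68) stayed short of 2-fold, and Tap1 (-0.17) and Parp14 (-0.16) had intervals that reached past 0, as did Rsad2 (0.17). In the C1q-rich barcodes 9 of 24 tested genes of the list were at least 2-fold lower and none higher, with a median of -0.64. Of all genes in that set, 3.42% were lower and 6.32% higher. Cell cycle genes (-0.84) and p53 targets (-0.67) had lower medians in that set.

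The same list can be read in other cells of the same libraries, which share the 2 mice and their free RNA. In Ly6C-high monocytes its median was -0.44. The ratio of Ifi27l2a was -1.26 (-1.32 to -1.20) there, and the ratio in C1q barcodes less that in monocytes was -0.61 (counting interval -0.94 to -0.28). Bst2 stood at -1.02 in monocytes, with a difference of -0.41 (-0.76 to -0.05). For Isg15 (-1.04 in monocytes) the difference was -0.30 (-0.94 to 0.34), an interval that reached past 0. In the other barcodes as a whole the ratios were -1.97 for Ifi27l2a, -1.54 for Bst2 and -1.21 for Isg15, so that these genes were lower in other cells of the DKO library as well. After thinning to 500 UMIs, Ifi27l2a was found in 16.8% of control and 4.9% of DKO C1q barcodes and in 35.0% and 17.6% of Ly6C-high monocytes, against 32.1% and 12.6% and 79.4% and 61.1% unthinned. Within the 7 groups the summed level of the list was lower in the DKO in 7 of 7, by a ratio of DKO to control of 0.346 to 0.721. In the Fcna group it was 2984 CPM (control) and 1403 CPM (DKO), with 34 and 0 UMIs of Ifi27l2a, and in the H2-Eb1 group it was 5538 and 3197 CPM, with 392 and 61 UMIs.

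**Figure D5:**
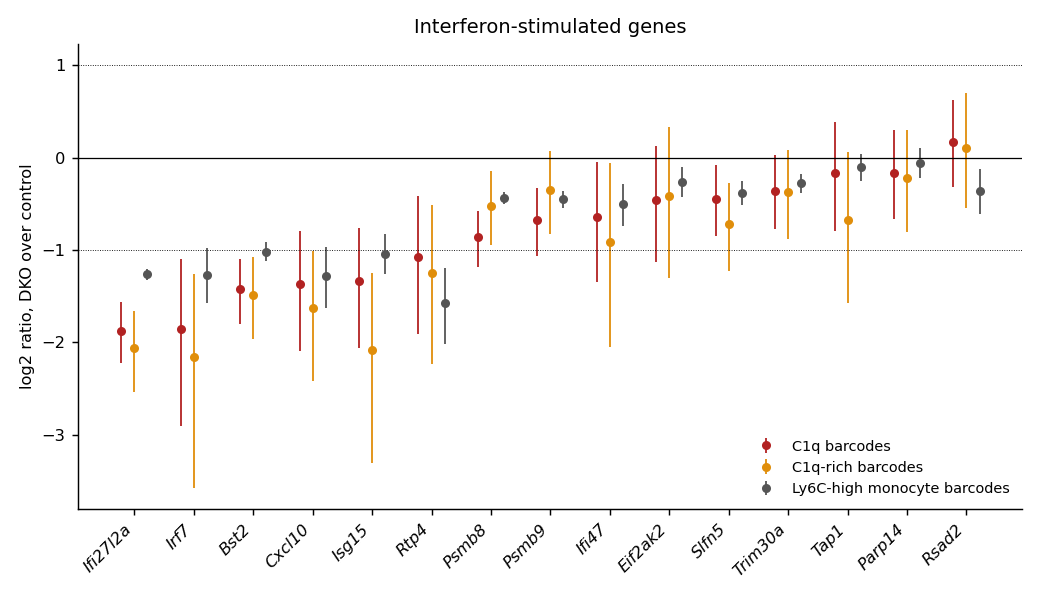
Log2 ratio of DKO over control for 15 of the 16 tested interferon-stimulated genes in C1q barcodes (red), C1q-rich barcodes (orange) and Ly6C-high monocytes (gray), with exact 95% counting intervals, a solid line at 0 and dotted lines at 2-fold. Ifi27l2a (-1.87, -2.06 and -1.26), Irf7, Bst2, Cxcl10 and Isg15 lie below the lower 2-fold line in all 3 classes, and Parp14 and Rsad2 near 0.

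The motif shown above for Isg15 and Bst2 was present in 17 of 35 genes of the list that have a RefSeq window (48.6%), against 3.46% of all genes. Among the tested genes, 6 with the motif had a median log2 ratio of -0.89 and 3 of them were at least 2-fold lower, and 6 without it had a median of -0.66 and 1 was at least 2-fold lower. Irf7, whose window lacks these letters, was among the lowest. These counts are small and were not tested.

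The 3 C1q genes had 3306, 2670 and 2492 UMIs in the control (C1qa, C1qb and C1qc) and 1134, 909 and 959 in the DKO. They stood at 2262, 1827 and 1705 CPM (control) and at 1523, 1220 and 1288 CPM (DKO), log2 ratios of -0.57, -0.58 and -0.40. As these genes chose the barcodes, the values are descriptive. The summed C1q level was lower in the DKO in 7 of 7 groups (ratios of 0.497 to 0.768), and the C1q level of all other barcodes was lower too (42.1 and 15.5 CPM).

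Genes of resident macrophage identity lay close to the median of all genes. Of 15 tested, none passed 2-fold in either direction and their median was 0.02 (-0.05 in the C1q-rich barcodes). The log2 ratio of Vcam1 was -0.16 (-0.27 to -0.05), with 2181 and 994 UMIs and a DKO level from 4813 CPM against 4948 CPM in the Fcna group to 319.7 CPM against 693 CPM in the Cxcl12 group, of Adgre1 0.32 (0.06 to 0.58), of Mrc1 0.32, of Cd68 -0.06 and of Sirpa 0.01. Mertk, a receptor for apoptotic cells and expelled nuclei, had 365 and 324 UMIs (250 and 435 CPM) and the highest ratio of the list, 0.80 (0.58 to 1.02). It stayed at 0.72 in the C1q-rich barcodes. Over both libraries, 502 of the Mertk UMIs lay in the Mertk group, which supplied 9.21% of control and 14.6% of DKO UMIs. In the Fcna group Mertk was at 196 and 178 CPM (27 and 10 UMIs), and it was lower in the DKO in 2 of 7 groups. The part of group make-up in the ratio was not tested. Cd163 had 146 and 53 UMIs and a ratio of -0.47 (-0.97 to -0.03).

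Of 16 transcription factors of macrophages, 1 was at least 2-fold lower and none higher (2.21% and 3.09% over all genes), with a median of 0.29. Nr1h3, or LXR-alpha, which governs cholesterol export and is needed for splenic marginal zone macrophages, had 155 UMIs for the control (106 CPM) and 35 for the DKO (47.0 CPM), a ratio of -1.14 (-1.75 to -0.64), and of -1.21 in the C1q-rich barcodes. It had at most 10 DKO UMIs in any group, and its level was close in the Crip2 group (224 and 219.5 CPM). Maf, which maintains macrophage identity, had 562 and 501 UMIs and 0.81 (0.63 to 0.98), with 1241 and 2172 CPM in the Mertk group and 569 and 615 CPM in the H2-Eb1 group. Mitf, a regulator of lysosomal genes, had 132 and 127 UMIs and 0.92 (0.55 to 1.28), and was past 2-fold in the C1q-rich barcodes at 1.06. Spic stood at 0.40 (0.10 to 0.69), Spi1, which encodes PU.1, at -0.38 (-0.67 to -0.10), and Pparg (0.00) near 0.

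Iron and heme recycling genes moved little as a list, with a median of -0.07 over 16 genes, 1 at least 2-fold higher and 1 lower (3.09% and 2.21% over all genes). Hmox1 had 2898 and 1362 UMIs (1983 and 1829 CPM), Slc40a1 1308 and 697 UMIs (895 and 936 CPM), and Fth1 15456 and 7426 UMIs (10577 and 9970 CPM), with log2 ratios of -0.12, 0.07 and -0.09. Ftl1, ferritin light chain, was at -0.27. The exceptions were Tfrc, the transferrin receptor, at 1.07 (0.73 to 1.42), which erythroid cells express strongly and which moved with the higher sum of erythroid markers in the DKO, and Hp, haptoglobin, at -1.47 (-1.94 to -1.06). Hpgd, a prostaglandin-degrading enzyme, was at -0.55 (-0.84 to -0.29), whereas in monocytes it was at 0.88. Tfrc was at 0.58 (-0.11 to 1.24) in the C1q-rich barcodes, with 45 and 35 UMIs, and Hp at -1.13, so that Tfrc was not past 2-fold there. Whether the erythroid RNA had a part in Tfrc, or RNA of progenitors and neutrophils in Hp, was not tested.

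Genes of erythroblast adhesion and nucleus clearance had a median of 0.16 over 9 genes, with none past 2-fold. They included Rb1 (0.49), Gas6, the ligand that bridges dying cells to Mertk and Axl (0.06), Dnase2a, the lysosomal DNase that digests engulfed nuclei (0.15, interval -0.30 to 0.57), and Maea (0.77, 0.15 to 1.37). Of 13 genes of phagocytosis, 1 was at least 2-fold lower and none higher (2.21% and 3.09% over all genes), at a median of 0.06. Axl (0.02), Elmo1 (0.00) and Cd300a (-0.09) lay near 0. Stab2, a scavenger receptor that sinusoidal endothelium also carries, was at -1.29 (-1.95 to -0.76), but at 0.67 in the C1q-rich barcodes. In that set the median of the phagocytosis list was 0.42, and Stab1 (1.37) and Dock1 (2.02) were at least 2-fold higher on 19 and 26 and on 17 and 37 UMIs.

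None of 26 lysosomal genes passed 2-fold (median -0.06). Psap, which encodes the saposins, had 4027 and 2839 UMIs and 0.47 (0.40 to 0.54), Ctsb was at 0.08, Ctsd at -0.25, the cathepsin inhibitor Cst3 at -0.55 (-0.68 to -0.43), and the proton pump subunit Atp6v1a at 0.97 (0.61 to 1.34). Acp5, a phosphatase of osteoclasts and macrophages, was at -1.29 in the C1q-rich barcodes. Lipid genes had a median of 0.03 over 14 genes with none past 2-fold. Apoe, the most abundant of them, had 5667 and 2268 UMIs (3878 and 3045 CPM) and -0.35 (-0.42 to -0.28), against 0.45 in Ly6C-high monocytes, a difference of -0.80 (-0.91 to -0.70). Fabp4, a fatty acid carrier, was at -0.75 (-0.96 to -0.55) and at -1.06 in the C1q-rich barcodes, but was close in the Crip2 group (1473 and 1427 CPM), whereas the cholesterol exporter Abca1 was at 0.74 (0.45 to 1.03) and Lpl at 0.36. Apoe and Abca1, both known targets of Nr1h3, lay on opposite sides of 0.

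Fc and complement receptors had a median of -0.11 over 10 genes with none past 2-fold. Fcer1g, the shared signaling chain, was at -0.45 (-0.55 to -0.35), and the inhibitory receptor Fcgr2b at 0.49 (0.12 to 0.84). Of 8 MHC class II genes 1 was at least 2-fold higher and none lower (median 0.20), against 3.09% and 2.21% of all genes. This was Ciita, the master regulator of the class, with 60 and 65 UMIs and 1.09 (0.56 to 1.62), against 1.79 in monocytes. Cd74 (0.23), H2-Ab1 (0.16), H2-Aa (0.10) and H2-Eb1 (0.00) themselves stayed near the median of all genes. Their sums were set mainly by the H2-Eb1 group, where H2-Aa was at 9873 CPM (control) and 8543 CPM (DKO). In the Mertk group H2-Aa was at 699 and 1870 CPM and the list summed to 3197 and 8706 CPM, and in the Gpnmb and Crip2 groups H2-Aa was at 126 and 518 CPM (8 and 21 UMIs) and at 126 and 549 CPM (9 and 10 UMIs). Of 12 chemokines and cytokines 2 were at least 2-fold lower and none higher (median -0.20), against 2.21% and 3.09% of all genes. The lower ones were Cxcl10 and Pf4, a platelet chemokine that was at -1.42 and, in the C1q-rich barcodes, at -0.10. Ccl6 was at 0.56, Igf1 at 0.08 and Cxcl12, of stromal origin in marrow, at -0.59. Among the C1q-rich barcodes 4 of 13 were at least 2-fold lower (3.42% over all genes), Cxcl12 (-2.65), Il1b (-2.26), Cxcl10 (-1.63) and Ccl5 (-1.17).

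Nucleic acid sensors and nucleases had a median of -0.04 over 12 genes, with Irf7 the only one past 2-fold. Of the interferon-inducible sensors Ifi204 was at -0.65 (-1.20 to -0.18) and Ifi207 at -0.41, whereas Samhd1 (0.12) and Unc93b1 (0.15) were near 0. None of 7 immediate response genes (median -0.12, Klf6 at 0.78) or 4 p53 targets (median -0.37, Bax at -0.62, Gdf15 at -0.80) passed 2-fold. In the C1q-rich barcodes the medians were -0.37 over 7 and -0.67 over 6 genes, and Btg2, which is on both lists, was at -1.06, past 2-fold. Among the sensors and nucleases Rnaseh2c (-1.04) was past 2-fold in that set beside Irf7 (-2.16). Ribosomal protein genes had a median of -0.15 (-0.30 in the C1q-rich barcodes), with Rpl13 at -0.32 and Rplp1 at 0.14. For 49 of 80 the interval lay below 0 and for 10 above, while 15.3% of all genes had it below 0 and 26.7% above. These abundant genes have narrow intervals, at a median of 0.094 to either side, so that small shifts place many of them below 0. Their summed level was lower in the DKO in 5 of 7 groups, with ratios of DKO to control of 0.547 to 1.24. Cell cycle genes had a median of 0.19 over 18 genes and -0.84 in the C1q-rich barcodes, with Ube2c at -1.08, the only one past 2-fold, and Mki67 at 0.63. The C1q-rich median is over 8 genes, of which Hmgb2 (-1.49), Birc5 (-1.47) and Ube2c (-1.43) were past 2-fold. Of the Mki67 UMIs, 248 of 359 (control) and 255 of 282 (DKO) lay in the Cxcl12 group.

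The genes with the lowest ratios were in large part genes of other cells. Prss34 and Mcpt8, proteases of basophils, had 535 and 317 UMIs in the control against 1 and 2 in the DKO, with 99.3% and 97.5% of the control UMIs in 1 barcode. Ppbp, Itga2b and Itgb3, genes of megakaryocytes and platelets, had ratios of -4.81, -3.87 and -3.05, and 87.5% of the control UMIs of Itga2b came from 1 barcode. In the C1q-rich barcodes they were at -3.72, -0.06 and -1.15. Ibsp, a bone matrix protein, and Serpine2 were at -3.73 and -2.33, and Prtn3, an azurophil protease, at -2.07. These turned under other C1q limits, Ibsp to 0.079 and Serpine2 to 0.13 with at least 10 C1q UMIs and Prtn3 to 0.0051 with at least 3. Serpine2 and Ibsp had 59.6% and 50.1% of their control UMIs in 1 barcode. The sums of progenitor, basophil and megakaryocyte markers, given above, were lower in the DKO. They include Prtn3, Prss34, Mcpt8, Ppbp and Itga2b themselves and are not a separate observation. How far RNA of other cells set these ratios was not tested. Hist1h2ap, a histone gene, was at -2.40 in the C1q barcodes and at -2.19 in all other barcodes.

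Several genes with the highest ratios also rested on few barcodes. Ltf (1.93) and Ngp (1.86), granule genes that the rule limited, had 85.4% and 91.8% of their DKO UMIs in 1 barcode, and were both at -1.10 in the C1q-rich barcodes. Car1 (1.60) and Gata1 (1.57) are erythroid genes. Both are on the erythroid marker list, so that the sum of 1901 CPM (control) and 2974 CPM (DKO) includes their own counts. Of the DKO UMIs of Car1, 59.5% came from 1 barcode. Slc25a21 (1.69), which also led the Cxcl12 group, Grk5 (1.60), Prim2 (1.46), Rlf (1.46) and C530008M17Rik (1.52) followed. Prim2 had 59.6% of its DKO UMIs in 1 barcode. The direction turned in the C1q-rich barcodes for C530008M17Rik (-2.06), Prim2 (-0.83) and Car1 (-0.79), and Slc25a21 (0.07) and Gata1 (0.26) fell short of 2-fold. Of these genes, Tanc2 (1.45), Rlf and Grk5 were also past 2-fold in the C1q-rich barcodes, at 1.64, 1.32 and 1.17.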

How the data were processed

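The authors ran Cell Ranger on the reads (7.1.0 per the file headers; build mm10 in the submitters' processing notes; the gene annotation is not given in the sources used here), and the deposited values were raw UMI counts per gene and barcode for 32285 genes, 123886480 UMIs in control and 117725934 in DKO barcodes of at least 500 UMIs.

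From these counts, the C1q barcodes were selected and summed per library, 1461300 control and 744823 DKO UMIs, and scaled to CPM. The members and gene lists were chosen with earlier results of these data known, and the C1q-rich definition and thinning to 500 UMIs after values had been seen. Genes with at least 50 CPM in 1 library were compared by the log2 ratio with 1 count added. The intervals were run on counts drawn from the Poisson model that they assume. That model has no clumping of UMIs in single barcodes, so the run does not show how the intervals cover here. Differences of ratios between classes had normal-approximation counting intervals. The text names the markers, the targets, the 10 largest and 10 smallest ratios among genes of at least 100 CPM whose interval left out 0, the 4 most abundant genes of each list, the 20 largest folds over other barcodes and the 5 leading genes of each group. Some genes that this rule selects are not reported here. Other list members the text names were chosen after their values were seen. B cells were barcodes with at least 3 Cd79a and Cd79b UMIs, and all other barcodes those that passed the limits and were not selected.

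Groups came from Leiden clustering (1500 variable genes without those of the rule, mitochondrial genes, Ddx41 and Cgas, 20 components, resolution 0.8, no integration). Doublets were scored with Scrublet and kept. The DKO threshold of 0.228 was used in both libraries after the scores were seen, since the control's own was 0.637, and it marked 314 control and 198 DKO barcodes. Of the passing barcodes 80 occurred in both libraries. Alternatives changed the C1q, UMI, mitochondrial, hemoglobin and CPM limits, the scaling, the weighting of barcodes and the counts added. Scanpy 1.11.5 with anndata 0.12.19 and igraph 0.11.9 did the clustering, scipy 1.17.1 and numpy 2.4.6 the intervals, under Python 3.11.15.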

Additional observations from a re-analysis of the deposited data

Results flagged for a closer look

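A gene was noted where it was at least 2-fold different between the libraries in C1q barcodes and at least 2-fold different the opposite way in Ly6C-high monocytes. There were 7 such genes, of which 6 are named here, and none in the same sense against all other barcodes. The difference between the classes was not tested, because each genotype had 1 library. Car1, an erythroid carbonic anhydrase, had a log2 ratio of DKO over control of 1.60 in C1q barcodes and -1.97 in monocytes. Itga2b, a platelet integrin, was at -3.87 and 1.004, and Cald1, a gene of contractile and stromal cells, at -1.12 and 1.80. Prkca was at -1.35 and 1.57, Gm2682 at 1.19 and -1.14, and Airn at 1.16 and -3.12. In the C1q-rich barcodes Car1 (-0.79), Gm2682 (-2.23) and Prkca (0.23) had the opposite sign and Itga2b was at -0.06, whereas Cald1 (-2.97) and Airn (1.30) stayed past 2-fold the same way. All DKO UMIs of Gm2682 came from 1 C1q barcode, and without the top barcode of each library its ratio was -3.93. For 4 of the 7 genes, over 50% of the UMIs of the higher library came from 1 C1q barcode.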

How the results depend on the processing

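The lower share of C1q barcodes in the DKO kept its direction under all 7 alternatives run, and leaving out barcodes above the doublet threshold removed no C1q barcode. Of the log2 ratios of single genes recomputed under the alternatives, 1185 stayed within their counting error, 308 moved beyond it and 15 changed sign after being past 2-fold, and of the list medians 212 stayed and 24 moved. Those that stayed include 116 ratios and 17 medians of the doublet setting, which could not change because no C1q barcode was removed. With at least 10 C1q UMIs, 49 ratios stayed, 64 moved and 3 changed sign. The count of 126 higher genes became 351 with at least 10 C1q UMIs, 193 with at least 2000 UMIs, 71 with ratios centred on the median of all genes, 1025 with no minimum CPM, 13 with at least 200 CPM and, in settings added after the data had been seen, 240 with C1q at least 0.2% of UMIs and 55 without the top barcode of each gene. The count of 90 lower genes became 178 with each barcode weighted equally, 663 with no minimum CPM and 29 with at least 200 CPM. Lower genes were 41.7% of all calls, against 62.2% after centring, 54.3% with equal weights, 22.9% with at least 10 C1q UMIs, 65.2% without top barcodes and 69.0% at 200 CPM. The median of resident identity genes (0.02) became -0.38 with at least 10 C1q UMIs, 0.30 with at least 3 and 0.26 with equal weights, that of iron and heme genes (-0.07) -0.49 with at least 10, and that of interferon-stimulated genes (-0.66) -1.42 over the 3 genes left at 200 CPM. It stayed below 0 in every setting, between -1.42 and -0.45.

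Among the genes recomputed under the alternatives, ratios that changed sign were Prim2 (-0.21 with equal weights, -0.83 in C1q-rich barcodes), C530008M17Rik (-2.06) and Car1 (-0.79) in C1q-rich barcodes, Ngp (-0.15 with equal weights, -1.10 in C1q-rich barcodes, -1.25 without the top barcode) and Ltf (-0.27, -1.10 and -0.44 likewise), Ibsp (0.079), Serpine2 (0.13) and Igfbp5 (3.47) with at least 10 C1q UMIs, and Prtn3 (0.0051) and Elane (0.35) with at least 3. Genes outside that set were not counted here, and of these Stab2, Gm2682 and Prkca also changed sign in C1q-rich barcodes, as given above. The cause was not tested. Immediate response genes and p53 targets had no gene left at 200 CPM.

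No paired analysis was possible because each genotype had 1 library, and for the same reason there was no replicate to leave out. Thinning the control sums to the DKO total gave 141 higher and 101 lower genes. Genes under 50 CPM, about 73 UMIs in the control and 37 in the DKO, were left out of the counts and list medians, though Ddx41 and Cgas, which lie below that level, are given, and the different barcode selection in the 2 matrices limits all shares.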

Other observations

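Barcodes that the rule left out also carried C1q. With at least 5 C1q UMIs but 40% or more hemoglobin there were 50 control and 16 DKO barcodes, with 3 or more Cd79a and Cd79b UMIs 36 and 5, with 5% or more granule gene UMIs 52 and 26, and with UMIs of a single C1q gene 4 and 1. After thinning each barcode to 500 UMIs, Fcna was found in 34.8% of control and 41.8% of DKO C1q barcodes.

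When the C1q barcodes were clustered again after thinning to 500 UMIs, the largest overlap of a group with a new one was 97.7% of its barcodes for the Elane group, 83.3% for the Mertk group and 79.5% for the H2-Eb1 group, but 42.1% for the Fcna group and 55.4% for the Crip2 group.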
